A study of Mus musculus with 12 samples.

Results

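Carbonic anhydrases are zinc enzymes that convert CO2 and water into bicarbonate and a proton, and back. Their members are told apart by where they act. Car2, Car3 and Car13 are cytosolic, Car5b is mitochondrial, Car6 is secreted, Car4, Car9 and Car12 are held at the cell surface with the catalytic domain outside, and Car8 and Car11 are carbonic anhydrase-related proteins that lack the catalytic activity. In the surface members the reaction is tied to the export of acid from the cell, and Car9 is a textbook target of the hypoxia-inducible factor HIF. The family consists of the 10 mouse genes Car2, Car3, Car4, Car5b, Car6, Car8, Car9, Car11, Car12 and Car13, and each has 1 entry in both RNA-seq tables, among 43280 entries in the table of the 2MUT experiment and 23930 in that of the 2-HG experiment. The genes were taken by name, and the family was chosen by the measured changes of Car9 in both experiments and of Car6 with 2-HG, so these values are given as a description with no test.

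RNA-seq was carried out on mouse embryonic fibroblasts (MEF cells), with 4 groups of 3 libraries each. The cells came from C57BL/6 embryos at embryonic day 13.5 and had become immortal without an added gene during serial passage. In the first experiment, cells were infected with the retroviral vector pMXs-puro and selected with puromycin. 2MUT cells expressed from it FLAG-tagged human IDH2 with the cancer-associated change R172S, and Control cells carried the vector alone. The mutant enzyme makes 2-hydroxyglutarate (2-HG), a metabolite that inhibits oxygenases dependent on 2-oxoglutarate. In the second experiment, octyl-(R)-2HG, an ester of 2-HG that crosses the membrane, was added to MEF cells at 300 μM, and the cells of 2-HG(+) were harvested after 24 h. Cells cultured without it gave 2-HG(-), which had received DMSO according to the sample labels. The question put to the family was which of its genes changed with the mutant enzyme, which changed with its product, and whether the changes differed.

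Values are RPM, the reads of a gene for every 1000000 reads that the library had on all genes. Libraries held 6472439 to 7313602 such reads in the first experiment and 14959318 to 18363768 in the second, so that 3 reads, taken here as the limit of detection, corresponded to 0.41 to 0.464 RPM and to 0.163 to 0.201 RPM. Each gene was read through a single short amplified target, so levels are not compared between genes. The labels do not say that the 3 libraries of a group came from separate cultures, and the p-values then measure only the spread between these libraries. All 8 fibroblast markers examined were listed, Lum near 0, with a summed level of 7881 to 21280 RPM in every library. The sum was lower in 2MUT (7881 to 8491 RPM) than in Control (11460 to 12550 RPM) and lower in 2-HG(+) (13550 to 14770 RPM) than in 2-HG(-) (19740 to 21280 RPM), and its part in the results was not tested. Col1a1, Col1a2 and Vim made up most of the sum, and single markers differed from it, since Thy1 rose with 2-HG (log2 fold change 0.71, limma adjusted p = 0.0136) and Pdgfra had a log2 fold change of 0.31 in 2MUT (limma adjusted p = 0.0618). Of 5 markers of red blood cells, the best known source of Car2, 4 were listed in the first experiment and 3 in the second. Those listed summed to at most 0.464 RPM. Hbb-b1 was listed in neither experiment and Hba-a1 only in the first.

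The annotation gives Car6 more than 1 start, and the start decides whether the protein carries a secretion signal. A form that lacks the signal and is induced by stress through the transcription factor CHOP is known. The coding part of the first coding exon of both forms is shown here because the rise of Car6 with 2-HG was the largest change in the family, and the start codon is in capitals. In GENCODE M21 on GRCm38, the transcript of the long form has 8 exons and begins its coding sequence at chr4:150201037-150201109 on the minus strand. That of the short form has 7 exons and begins its coding sequence at chr4:150198099-150198186 on the same strand.
Car6 long form: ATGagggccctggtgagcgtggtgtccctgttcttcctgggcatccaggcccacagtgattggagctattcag
Car6 short form: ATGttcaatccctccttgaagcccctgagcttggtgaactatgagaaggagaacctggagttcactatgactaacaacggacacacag
The starts lie 2923 bases apart. The 88 bases of the short form are also in exon 2 of the long form, and the short form lacks the first 168 bases of the longer coding sequence, which is 56 of its 317 codons. Which form the reads came from cannot be told apart in these data, since they are counted per gene.

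Promoters were searched for ACGTG, a form of the core bound by HIF, because Car9 is its textbook target. Other forms of the core were not searched. The sequences are 300 bases of RefSeq on GRCm38.p6, from 250 before to 50 after each start, and both strands were searched. Of the 10 members, 6 had a promoter in the table, and those of Car4, Car6 and Car9 held the core, which was present in 19.6% of 32851 promoters. The matches of both members with the largest changes are shown within 30 bases, read on the strand of the gene, with the core or its complement CACGT in capitals. That of Car9 is at chr4:43506996-43507025 on the plus strand, with the match 18 bases before the RefSeq start, and that of Car6 at chr4:150201267-150201296 on the minus strand, with the match 149 bases before the RefSeq start. Both windows lie inside the spans that GENCODE gives these genes, whose starts are further upstream.
Car9: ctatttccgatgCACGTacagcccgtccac
Car6: gaggaggtgaggCACGTgcacaggcaccaa
In Car6 the complement overlaps the core itself, so that the match reads the same on both strands. The element TGATGNAA, bound by ATF4 together with C/EBP proteins, was found in the promoter of Car11 among the members and in 3.97% of all promoters. The C/EBP core TGCAAT, present in 8.4% of all promoters, was found in 0 of the 6, which says only that these letters are not in these windows.

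In both experiments the same 5 members, Car13, Car5b, Car6, Car9 and Car11, had a mean of at least 1 RPM over 6 libraries and were tested. In 2MUT cells Car9, Car11 and Car13 were lower than in Control cells and Car5b was higher. With 2-HG, Car6 rose from a level near 1 RPM to about 65 RPM, while Car9, Car5b and Car13 were lower. By limma with Benjamini-Hochberg adjustment, 4 of the 5 tested members passed the threshold of 0.05 in each comparison, 1 higher and 3 lower. Of all 11065 genes tested with mutant IDH2, 33.8% passed (16.5% higher and 17.3% lower), and of 10384 genes with 2-HG, 32.8% passed (16.1% higher and 16.7% lower). The groups of 4 of the 5 did not overlap in each comparison, beside 47.5% and 46.3% of genes. Those counts hold the changes that chose the family, and nothing is read from them. The median log2 fold change of the 5 was -0.42 and -0.40, beside 0.01 and -0.02 over all genes tested. These medians hold the same changes of Car9 and Car6, and nothing is read from them either.

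**Figure D1:**
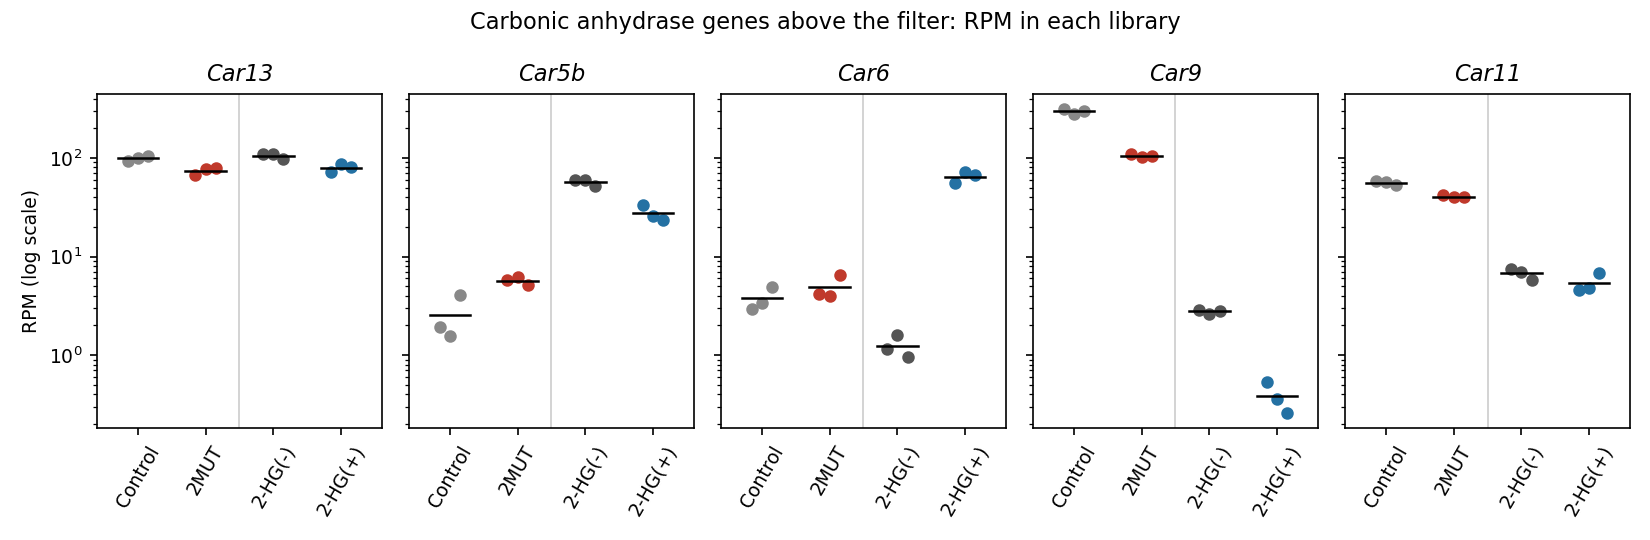
RPM of the 5 tested members in each library, on a log scale, with 1 panel per gene, 1 point per library and a line at the group mean. Car6 is at 0.961 to 1.60 RPM in 2-HG(-) and at 55.7 to 71.2 RPM in 2-HG(+), Car9 lies lower in 2MUT and in 2-HG(+) than in their controls, and Car5b lies higher in 2MUT and lower in 2-HG(+).

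Car13, a cytosolic enzyme, is at chr3:14641727-14663002 on the plus strand, at one end of a cluster of 259044 bases that also holds Car1, Car3 and Car2. Its level was 92.6, 100.3 and 105.1 RPM in Control and 67.4, 76.6 and 78.2 RPM in 2MUT. All 3 libraries of 2MUT were below all 3 of Control. Car13 fell by 0.42 on the log2 scale (SE 0.11, limma adjusted p = 0.0126), from 99.4 ± 6.31 to 74.0 ± 5.83 RPM (SD, n = 3). In the second experiment it was at 110.5, 109.4 and 97.2 RPM in 2-HG(-) and at 71.9, 87.3 and 80.2 RPM in 2-HG(+). These groups did not overlap either, and the means were 105.7 ± 7.40 and 79.8 ± 7.70 RPM (SD, n = 3). The log2 fold change was -0.40 (SE 0.11, limma adjusted p = 0.0179). The falls differed by -0.02 on the log2 scale, with a 95% interval from -0.34 to 0.31 (limma adjusted p = 0.938). The call was kept in 13 of 14 alternatives in 2MUT and in 11 of 14 with 2-HG. That in 2MUT was lost without 2MUT replicate 1 (limma adjusted p = 0.0616), and that with 2-HG without 2-HG(-) replicate 1 (limma adjusted p = 0.0598) and in the test without moderation (adjusted p = 0.0621). The remaining loss with 2-HG came with the replicate number as a block, and is given below with the processing.

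The neighbours of Car13 in the cluster were at or near 0. Car2, the cytosolic enzyme of red blood cells and osteoclasts (chr3:14886273-14900770, plus strand), had 5, 9 and 4 reads in Control and 7, 2 and 1 reads in 2MUT. Those groups overlapped at 0.547 to 1.28 RPM and 0.138 to 1.08 RPM, and the gene was not tested. In the second experiment Car2 had 1 read in 2-HG(-) replicate 1 and 1 read in 2-HG(+) replicate 2. Car3, an enzyme of adipocytes and slow muscle (chr3:14863512-14872523, plus strand), was listed at 0 in all 12 libraries, which allows up to 0.464 RPM. The 7 adipocyte markers summed to 93.7 to 107.5 RPM in Control, 109.5 to 125.9 RPM in 2MUT, 8.69 to 14.2 RPM in 2-HG(-) and 6.61 to 8.06 RPM in 2-HG(+), so that neither pair of groups overlapped. Fabp4 and Lpl carried most of the sum in Control and 2MUT, and Adipoq, Cfd and Plin1 were at or near 0. Lpl rose in 2MUT (log2 fold change 0.79, limma adjusted p = 0.000875), while Fabp4 had a log2 fold change of -0.27 (limma adjusted p = 0.112). With 2-HG, Fabp4 and Lpl fell by 1.02 and 0.99 on the log2 scale, while Pparg rose from 1.48 to 3.53 RPM (0.90, limma adjusted p = 0.00799). The part of these markers in the results was not tested.

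Car5b, the mitochondrial enzyme, supplies bicarbonate for reactions inside that organelle. It lies at chrX:163976822-164027997 on the minus strand. Its level was 1.92, 1.57 and 4.10 RPM in Control, from 13, 11 and 30 reads, and 5.72, 6.15 and 5.09 RPM in 2MUT, from 37, 42 and 37 reads. The highest Control library stood apart from the other two but still below the 2MUT libraries. The mean rose 2.23-fold, from 2.53 ± 1.37 to 5.65 ± 0.532 RPM (SD, n = 3). On the log2 scale this was 0.98 (SE 0.27, limma adjusted p = 0.0168). This call was lost without Control replicate 1 (log2 fold change 0.88, limma adjusted p = 0.0591), without Control replicate 2 (0.78, adjusted p = 0.0585) and without 2MUT replicate 2 (0.92, adjusted p = 0.0585), while without Control replicate 3 the change was 1.28. It was also lost in the test without moderation (adjusted p = 0.105).

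With 2-HG, Car5b changed in the other direction and at a higher level. It was at 59.4, 59.1 and 51.4 RPM in 2-HG(-) and at 33.3, 26.0 and 23.5 RPM in 2-HG(+). Every treated library was below every untreated one. The level in 2-HG(-), 56.6 ± 4.54 RPM, was 2.05 times that in 2-HG(+), 27.6 ± 5.09 RPM (SD, n = 3), and the log2 fold change was -1.02 (SE 0.14, limma adjusted p = 0.000583). The call was kept in all 14 alternatives, with log2 fold changes from -1.16 to -0.92. The changes of Car5b in the experiments differed by 2.00 on the log2 scale (SE 0.31, 95% interval 1.33 to 2.66, limma adjusted p = 0.000191 over 9594 genes, of which 39.4% passed). That difference passed in all 16 alternatives, between 1.80 and 2.30.

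Car6, the secreted enzyme of saliva, lies at chr4:150187015-150201332 on the minus strand. It was at 2.96, 3.42 and 4.92 RPM in Control and at 4.17, 3.95 and 6.47 RPM in 2MUT. The groups overlapped, and the means were 3.77 ± 1.03 and 4.86 ± 1.39 RPM (SD, n = 3). The log2 fold change was 0.29 with a 95% interval from -0.25 to 0.84 (limma adjusted p = 0.381), and it was between 0.11 and 0.46 in the alternatives.

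With 2-HG, Car6 showed the largest change of the family. It was at 1.14, 1.60 and 0.961 RPM in 2-HG(-), from 21, 24 and 16 reads. In 2-HG(+) it was at 55.7, 71.2 and 67.6 RPM, from 842, 1184 and 1034 reads. The lowest treated library was far above the highest untreated one. The mean went from 1.24 ± 0.331 to 64.8 ± 8.12 RPM (SD, n = 3), a ratio of 52.4. On log2(RPM + 1) the change was 4.88 (SE 0.16), and on the recovered reads, where no 1 RPM is added, it was 5.73 by edgeR and 5.74 by DESeq2. On the log2(RPM + 1) scale, the change in 2MUT minus that with 2-HG was -4.59 (SE 0.29). Markers of epithelial cells, which make Car6 in glands, summed to at most 1.61 RPM in every library.

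Among the surface members, Car9 was the one above the filter. Car9, a transmembrane enzyme that acidifies the medium of hypoxic cells (chr4:43506966-43513729, plus strand), was at 315.8, 275.9 and 297.9 RPM in Control and at 110.6, 101.6 and 104.9 RPM in 2MUT. The level in Control, 296.5 ± 19.9 RPM, was 2.81 times that in 2MUT, 105.7 ± 4.57 RPM (SD, n = 3). The groups were far apart and the log2 fold change was -1.48 (SE 0.10). In the second experiment Car9 was at 2.89, 2.61 and 2.82 RPM in 2-HG(-), from 53, 39 and 47 reads, and at 0.529, 0.361 and 0.261 RPM in 2-HG(+), from 8, 6 and 4 reads. All treated libraries were again below all untreated ones, 7.22-fold in the mean (2.77 ± 0.146 and 0.384 ± 0.135 RPM, SD, n = 3). Car9 passed the filter in this experiment only through 2-HG(-), since its mean over the 6 libraries was 1.58 RPM.

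The scale matters for setting the falls of Car9 side by side. On log2(RPM + 1) the fall with 2-HG was -1.45 (SE 0.15), and the falls differed by -0.03, given with no test. With 0.1 in place of 1 added before the logarithm, the fall with 2-HG was -2.61 and the difference turned to 1.12. By edgeR on the recovered reads the fall with 2-HG was -2.82. The order of the falls thus depended on the value added.

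Car4 and Car12 were under the filter. Car12, a transmembrane enzyme of epithelia (chr9:66713686-66766845, plus strand), had 10, 4 and 6 reads in Control and 4, 4 and 9 reads in 2MUT, which overlap. It was at 0 in the second experiment except for 2 reads in 2-HG(+) replicate 2. Car4, which is held by a lipid anchor (chr11:84957786-84966044, plus strand), was listed at 0 in the first experiment and had 1 read in 2-HG(-) replicate 3 and 1 read in 2-HG(+) replicate 1. No difference was detectable at this depth for either gene.

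Of the related proteins without activity, Car11 was measured well in the first experiment (chr7:45699843-45704682, plus strand). It was at 58.6, 56.4 and 53.6 RPM in Control and at 41.7, 40.0 and 39.8 RPM in 2MUT. The groups did not overlap, and the libraries of each group lay close together. Car11 fell by 0.46 on the log2 scale (SE 0.11, limma adjusted p = 0.00881), from 56.2 ± 2.50 to 40.5 ± 1.07 RPM (SD, n = 3), and the call was kept in all 14 alternatives. With 2-HG the levels were 7.51, 7.02 and 5.82 RPM without and 4.56, 4.81 and 6.79 RPM with the compound. These groups overlapped, and the log2 fold change of -0.30 had a 95% interval from -0.68 to 0.09 (limma adjusted p = 0.216). The changes in the experiments differed by -0.17 (95% interval -0.61 to 0.27, limma adjusted p = 0.549). Car8, which binds the calcium channel of the endoplasmic reticulum in neurons (chr4:8143362-8239041, minus strand), was at 0 except for 4 reads in 2-HG(+) replicate 1.

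**Figure D2:**
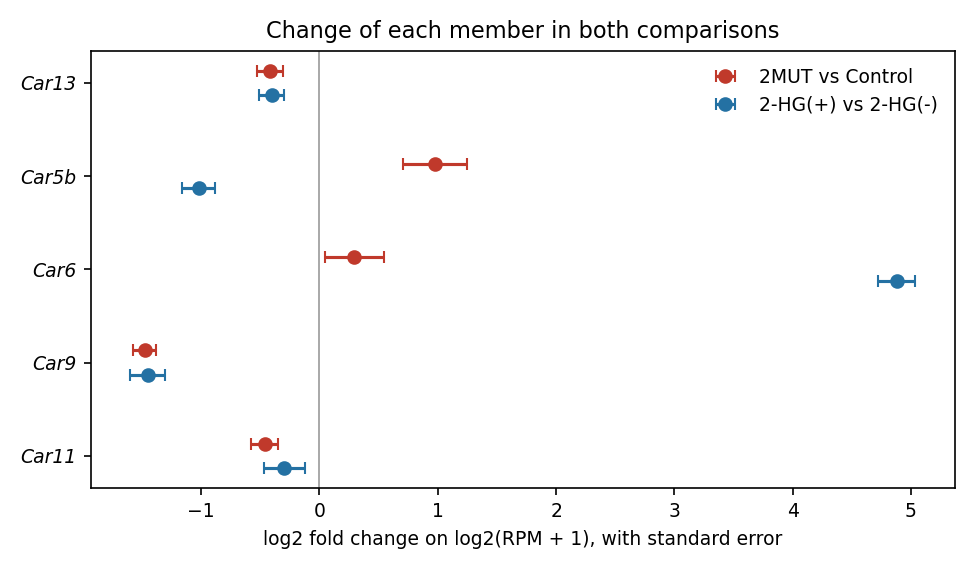
Change of the 5 tested members in both comparisons, as log2 fold change on log2(RPM + 1) with its standard error, 3 libraries a group. Car13 and Car9 lie to the left of 0 in both, Car5b lies at 0.98 with mutant IDH2 and at -1.02 with 2-HG, and Car6 lies at 0.29 and 4.88.

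The other carbonic anhydrases of the mouse were examined beside the members. Of Car1, Car5a, Car7, Car10, Car14 and Car15, Car7 alone was above the filter, a cytosolic enzyme best known from neurons. It was at 2.72, 2.47 and 3.12 RPM in 2-HG(-) and at 1.26, 1.80 and 1.31 RPM in 2-HG(+), groups that did not overlap. Its log2 fold change was -0.62 (SE 0.16, limma adjusted p = 0.0135), and the call was lost without 2-HG(-) replicate 3. In 2MUT it was -0.25 (limma adjusted p = 0.432).

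Carbonic anhydrases work with proteins that carry bicarbonate, protons and lactate across membranes. Of 26 such genes, 19 were tested in the first experiment, with 4 higher, 1 lower, 14 not called and a median log2 fold change of 0.06. With 2-HG, 20 were tested, of which 5 passed the threshold and each of them rose, while 15 were not called and the median was 0.19. Of all genes tested, 16.5% were higher and 17.3% lower in 2MUT, and 16.1% higher and 16.7% lower with 2-HG. The lactate and proton carrier Slc16a1 was higher in both, from 42.9 to 74.0 RPM in 2MUT (log2 fold change 0.78) and from 85.8 to 144.4 RPM with 2-HG (0.73). Slc16a3, another lactate carrier, was at no more than 0.427 RPM in any library and was not tested. In 2MUT the sodium bicarbonate cotransporter Slc4a4 rose from 58.3 to 95.1 RPM (0.70, limma adjusted p = 0.00056) and Slc4a11 from 4.14 to 7.78 RPM (0.78), while the sodium proton exchanger Slc9a5 fell from 16.6 to 8.53 RPM (-0.91). With 2-HG the sodium proton exchanger Slc9a9 rose from 3.53 to 8.91 RPM (1.12) and the bicarbonate transporters Slc4a8 and Slc4a7 rose by 0.74 and 0.45.

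Car9 is switched on by HIF in hypoxia, and 22 other HIF target genes were examined. In 2MUT, 21 were tested, 7 were higher, 2 lower and 12 not called, with a median log2 fold change of 0.27, beside 16.5% of all genes higher and 17.3% lower. In the test without moderation 3 were higher and 1 lower. With 2-HG, 20 were tested, 8 were higher, 1 lower and 11 not called, with a median of 0.34, beside 16.1% of all genes higher and 16.7% lower. The glucose transporter Slc2a1 rose from 260.0 to 729.4 RPM in 2MUT (1.49, limma adjusted p = 4.37e-06) and from 69.4 to 123.3 RPM with 2-HG (0.82). Ero1l, an oxidase of the endoplasmic reticulum, rose by 0.81 and 1.55, and the collagen hydroxylase P4ha2 by 0.88 and 0.38. Lower in 2MUT were the glycolytic enzyme Aldoa (-0.49) and the repressor Bhlhe40 (-0.79). The 1 lower with 2-HG, the histone demethylase Kdm3a (-0.40, limma adjusted p = 0.0395), was not called in most alternatives.

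The mRNA of Hif1a, the oxygen-regulated subunit of HIF, differed between the comparisons. It rose from 81.3 to 251.7 RPM in 2MUT (log2 fold change 1.62, limma adjusted p = 1.27e-06). With 2-HG it was at 328.1 and 332.5 RPM (0.02, limma adjusted p = 0.939), and the changes differed by 1.60 (limma adjusted p = 6.6e-06).

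Because the short form of Car6 is known to depend on CHOP, 19 genes of the ATF4 and CHOP stress response were examined. The list includes Cth, Stbd1 and Slc7a11, whose rises with 2-HG were already known, so its count is not independent evidence of its direction. Of 18 genes tested with 2-HG, 16 passed the threshold and each of them rose, with a median log2 fold change of 1.67, beside 16.1% of all genes higher and 16.7% lower. In 2MUT, 18 were tested, 5 were higher, 1 lower and 12 not called, with a median of 0.21, beside 16.5% of all genes higher and 17.3% lower. In the test without moderation 2 of the 18 were called in 2MUT, both higher. Ddit3, which encodes CHOP, was at 39.4, 56.4 and 36.9 RPM in 2-HG(-) and at 175.8, 167.8 and 183.1 RPM in 2-HG(+). It was at 181.6, 96.4 and 146.6 RPM in Control and at 56.2, 51.1 and 62.7 RPM in 2MUT. Ddit3 therefore changed in opposite directions, by 1.99 with 2-HG (limma adjusted p = 1.65e-05) and by -1.26 in 2MUT (limma adjusted p = 0.000549). Its fall in 2MUT was not called in the test without moderation. Atf4, the factor above CHOP, rose from 429.8 to 1219 RPM with 2-HG (1.52), and in 2MUT its log2 fold change was 0.25 (limma adjusted p = 0.052). The cystathionine enzyme Cth rose by 3.44 with 2-HG, the starch-binding protein Stbd1 by 3.17 and the cystine carrier Slc7a11 by 2.83. In 2MUT the transcription factor Atf3 rose from 8.76 to 24.7 RPM and the stress protein Sesn2 from 17.9 to 41.1 RPM. The rise of Car6 stood beside these rises with 2-HG, and their part in it was not tested.

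**Figure D3:**
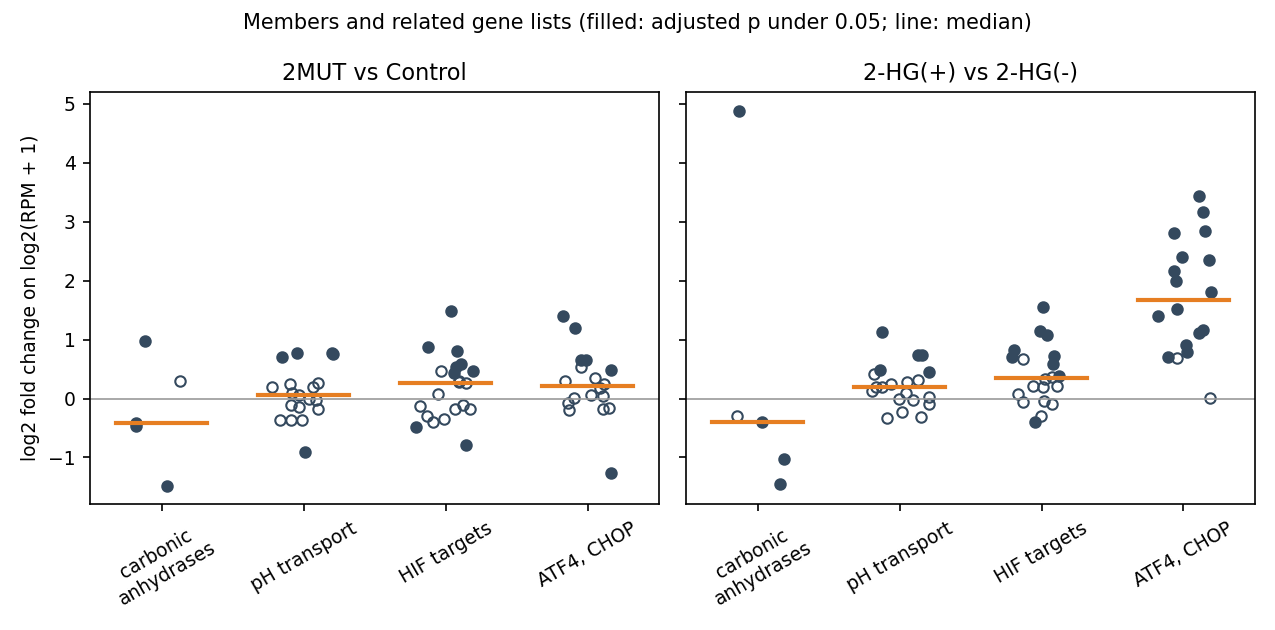
Log2 fold changes on log2(RPM + 1) of the tested carbonic anhydrases and of the genes for pH transport, HIF targets and the ATF4 and CHOP response, with mutant IDH2 at left and 2-HG at right. Each point is a gene, filled where the limma adjusted p was under 0.05, and the line is the median. The fill of Car9 in both panels and of Car6 at right is not read as a test, since these values chose the family. The stress response genes have a median of 0.21 at left and 1.67 at right, where Car6 is the single point at 4.88.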

How the data were processed

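Sequencing was performed on the Ion Proton with Ion AmpliSeq libraries, in which 1 short target per gene is amplified. The authors aligned reads with TMAP to the AmpliSeq mouse transcriptome and counted them with the AmpliSeqRNA plug-in, and they deposited RPM in 1 table per experiment. Divided by the RPM of 1 read, 100% of values came out whole within 0.05 read, so whole reads were recovered. Sample columns without a group numbered 0. Names turned into dates (27 a table) and repeated names (4 entries a table) stayed in the tests of each experiment if above the filter. They were left out of the difference of the changes, where entries are matched by name between the experiments.

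Values were tested as log2(RPM + 1) with limma 3.58.1 in R 4.3.3, with a mean-variance trend, keeping genes whose mean over the 6 libraries reached 1 RPM. Benjamini-Hochberg adjustment was over all genes tested, with a threshold of 0.05. The difference of the changes was a contrast over 12 libraries. Fold changes on this scale understate those of low genes. The test was checked on simulated data. Alternatives were edgeR 4.0.16 and DESeq2 1.42.0 on recovered reads, an added value of 0.1, no filter, a filter at 10 RPM, median-of-ratios scaling, an unmoderated test as in the study, a block for the replicate number, and leaving out each library in turn. Tables were handled with pandas 2.3.3 and plots drawn with matplotlib 3.10.9.

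The members and lists were chosen with earlier results of these data known. Named genes were all members, in each list up to 3 with the largest change past the threshold, and a fixed set of partners (Ddit3, Atf4, Hif1a, Slc4a4, Slc4a7, Slc16a1, Slc16a3 and Bsg). A gene of the transport list is not reported here and was left out of its counts. Aldoa, Bhlhe40, Kdm3a, Car7 and the cell type markers given singly were named after their values were seen. Coordinates are from GENCODE M21 on GRCm38. Where the amplified targets lie was not analysed here.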

Additional observations from a re-analysis of the deposited data

Results flagged for a closer look

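The changes with mutant IDH2 and with 2-HG were compared gene by gene over the 12 libraries, and the values here are the change in 2MUT minus the change with 2-HG on the log2(RPM + 1) scale. Values are listed only for named genes that passed an adjusted p of 0.05 by limma, so their passing is not a result. Of all 9594 genes compared, 39.4% passed. Among the carbonic anhydrases the value was 2.00 for Car5b. For Car6, whose rise with 2-HG was used to choose the family, it was -4.59 and is given with no test. Among the transport genes they were -1.03 for Slc9a5, -1.10 for Slc4a8, 0.60 for Slc4a4, -0.62 for Slc4a7 and 0.52 for Bsg, the partner protein of lactate carriers. Bsg was called in neither comparison. Its log2 fold change was 0.19 in 2MUT (limma adjusted p = 0.149) and -0.33 with 2-HG (limma adjusted p = 0.0639). Among the HIF targets they were 0.67 for Slc2a1, 0.50 for P4ha2, -0.73 for Ero1l, -0.56 for Ndrg1 and -0.79 for Hk2, and for Hif1a itself 1.60. Among the stress response genes they were -0.95 for Atf3, -3.25 for Ddit3, -3.64 for Cth, -3.13 for Stbd1, -2.49 for Slc7a11 and -1.28 for Atf4. The rises of Cth, Stbd1 and Slc7a11 with 2-HG were already known, so their values are given with no test. The experiments differ in vector, depth and table, and the part of these in the differences was not tested.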

How the results depend on the processing

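The 1 member higher in 2MUT, Car5b, was not called in the test without moderation (0 members, 1 at an unadjusted p under 0.05), was not tested under the filter at 10 RPM (0), and gave 0 to 1 when each library was left out. For the difference of the changes, 2 members were higher with 0.1 added, of which Car9 was used to choose the family, so nothing is read from its part in that count. The difference of Car9 was then 1.12, and between -0.0925 and 0.0465 with a library left out. That of Car13 was between -0.0889 and 0.0492. Of the listed genes, 9 were higher and 2 lower in 2MUT without moderation, against 16 and 4. Against 2 lower with 2-HG, 1 was lower without moderation, by edgeR, by DESeq2, with no filter, with the filter at 10 RPM, with median-of-ratios scaling and with the replicate block. With a library left out these were 14 to 18, 4 to 5, and 0 (2 at an unadjusted p under 0.05, without 2-HG(-) replicate 3) to 4 (without 2-HG(+) replicate 1). Over all genes in 2MUT, 1021 were higher and 1223 lower without moderation, against 1826 and 1915. The cause of these shifts was not tested. Same-numbered libraries did not deviate together (r from 0.03 to 0.07 in the first experiment and from -0.46 to 0.06 in the second), and not every library correlated best with its own number. With the replicate number as a block, 1911 genes were higher and 1987 lower in 2MUT, and 1217 and 1286 with 2-HG, against 1668 and 1737, where Car13 was not called (limma adjusted p = 0.0538). Depth limits Car2, Car3, Car4, Car8 and Car12, which had 0 to 10 reads a library.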

Other observations

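Untreated cells of the experiments differed in the levels of several members. The tables list different sets of entries and were made separately, so these ratios are a description. Car9 was 107.0-fold higher in Control than in 2-HG(-), and 0.0729% of 9599 genes were at least as far apart. Car5b was 22.4-fold higher in 2-HG(-) than in Control, with 2.09% of genes at least as far apart. Car11 was 8.28-fold higher in Control (7.75% of genes) and Car6 3.05-fold higher (25.1%), while Car13 was at 99.4 and 105.7 RPM. Control cells carried a vector and had been selected with puromycin, no vector is given for 2-HG(-) cells, and this cannot be told apart here from other differences between the experiments.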
